A study of Bos taurus with 12 samples.

Results

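Voltage-gated sodium channels let sodium into a heart muscle cell at the start of each beat and so carry the upstroke of the action potential and its spread through the muscle. Each channel has a large alpha subunit, which forms the pore, opens with voltage and closes again by inactivation, and smaller beta subunits, which cross the membrane once, carry an immunoglobulin-like domain outside the cell and change the gating, the amount at the surface and the adhesion of the channel. Different alpha genes serve heart, nerve and skeletal muscle, and the beta subunits are encoded by a small family of their own.

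The genes described are 5 sodium channel subunit genes, SCN3B, SCN2B, SCN4B, SCN4A and SCN7A, taken by their symbols from a table of 24616 genes. No symbol of the 5 was repeated, so the mean RPKM that would have picked among repeats decided nothing. They were chosen by symbol with earlier results of these libraries known, the SCN3B difference between pressure classes among them, so that difference is given as a description and supports nothing further. With 7 further subunit genes given for comparison, 12 genes of the family were followed. The tissue was right ventricle, which drives blood through the lungs, of 12 Angus steers of wild-type genotype that lived in chronic low oxygen at 2170 m (7120 ft). They were castrated at 6 to 8 months and slaughtered at 13 to 15 months of age. From repeated catheter measurements of the pulmonary arterial pressure (PAP) and clinical signs, 3 animals had been classed as failing under pulmonary hypertension (PH-failure), 3 as hypertensive but healthy (PH-healthy) and 6 as low PAP. Each library is 1 animal. All groups shared breed, sex, elevation and diet, and no group kept at sea level was used here, so the comparisons are between pressure classes within hypoxia.

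Levels are in RPKM, read numbers divided by exon length and by the mapped reads of the library, so levels of different genes are compared per length. The libraries held 14739237 to 31090198 mapped reads, and the read numbers behind each value could be recovered. The 10 cardiomyocyte markers, among them TNNT2, MYH7 and MYL2, were all tested, and their summed level was 44291 to 73418 RPKM in PH-failure, 68042 to 74332 RPKM in PH-healthy and 58233 to 76776 RPKM in low PAP. The low end was PH-failure replicate 3, the library in which SCN7A and SCN4A were highest, where ACTC1 had 831 RPKM, against 3381 RPKM or more in each of the other 11 libraries. Of the 10 markers, TNNI3, ACTC1 and PLN fell in PH-failure against low PAP, where 5.79% of all tested genes were called lower. In PH-healthy TNNI3 fell and MYH7 rose, where 8.15% of all tested genes were called lower and 26.6% higher. A gene entered the test if 3 or more libraries reached 1 RPKM, which 11374 did. Of the 5 genes, SCN3B and SCN7A passed this filter, while SCN2B, SCN4B and SCN4A did not reach 1 RPKM in any library. Log2 fold changes, given ± standard error, compare log2(RPKM + 1) in a limma fit over all tested genes, and a gene was called at a Benjamini-Hochberg adjusted p under 0.05. Against low PAP, the median gene stood at 0.21 in PH-failure and 0.18 in PH-healthy on this log2 scale, and at -0.03 and -0.04 once libraries were quantile normalized.

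Of the 12 subunit genes followed, SCN3B, the beta-3 subunit, was the highest in every group, and SCN7A was next. The ranges of SCN3B and SCN7A did not overlap with each other, nor that of SCN7A with the next gene in the order, in any group. The other 10 genes averaged 0.00984 to 0.206 RPKM over the 12 libraries, and most neighbours in their order overlapped. SCN2B and SCN4B, at 0.206 and 0.133 RPKM, were the highest of these 10. SCN4A was the lowest of the 12 in PH-healthy and in low PAP, and had rank 8 in PH-failure, where 14 of its 16 reads came from replicate 3.

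**Figure D1:**
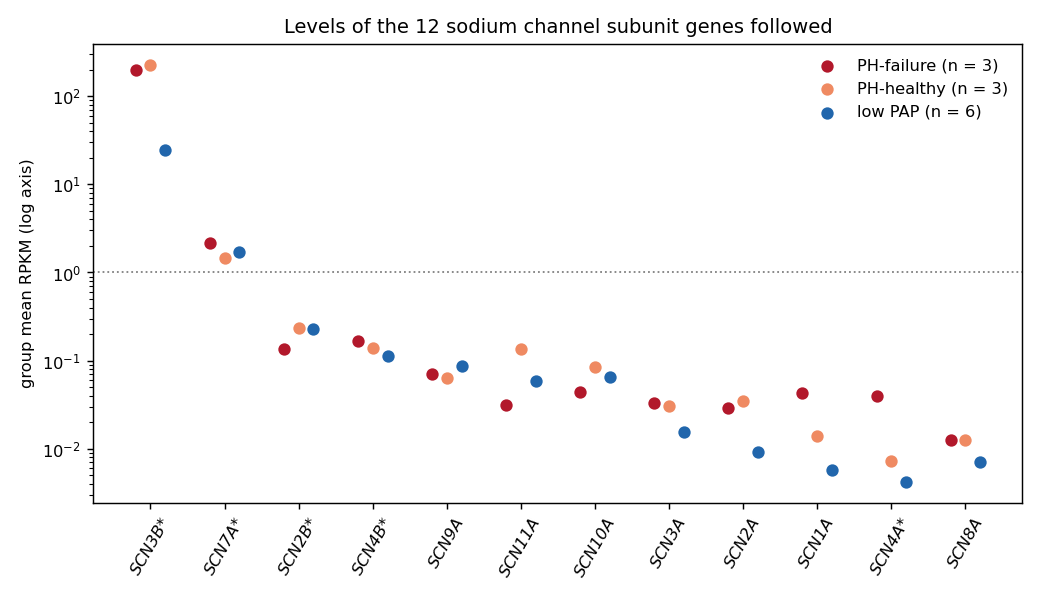
Group mean level of the 12 sodium channel subunit genes followed, in RPKM on a log axis, ordered by the mean over 12 libraries, with the 5 genes described marked by an asterisk and the filter level of 1 RPKM as a dotted line. SCN3B and SCN7A lie above 1 RPKM in each group, and the other 10 genes lie below it.

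SCN3B encodes the beta-3 subunit, which associates with the alpha subunit without a covalent bond. It lies on chromosome 15 (ENSBTAG00000016768, 34769328 to 34791462 in the coordinates of the deposited table), with 931 bases of exon as recovered from the values. It had 102, 287 and 214 RPKM in PH-failure replicates 1, 2 and 3, and 211, 206 and 268 RPKM in PH-healthy replicates 1, 2 and 3. The low-PAP libraries had 5.76, 10.1, 11.8, 28.2, 24.6 and 67.6 RPKM in replicates 1 to 6. Every PH library was above every low-PAP library, and PH-failure replicate 1 was the lowest of the 6 PH libraries. These values rest on 1393 to 7438 reads in PH-failure, 4209 to 7073 in PH-healthy and 144 to 1849 in low PAP, so counting error is small beside the spread between animals. In bulk tissue, more RNA per cell and more cells of a type that makes it cannot be told apart.

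**Figure D2:**
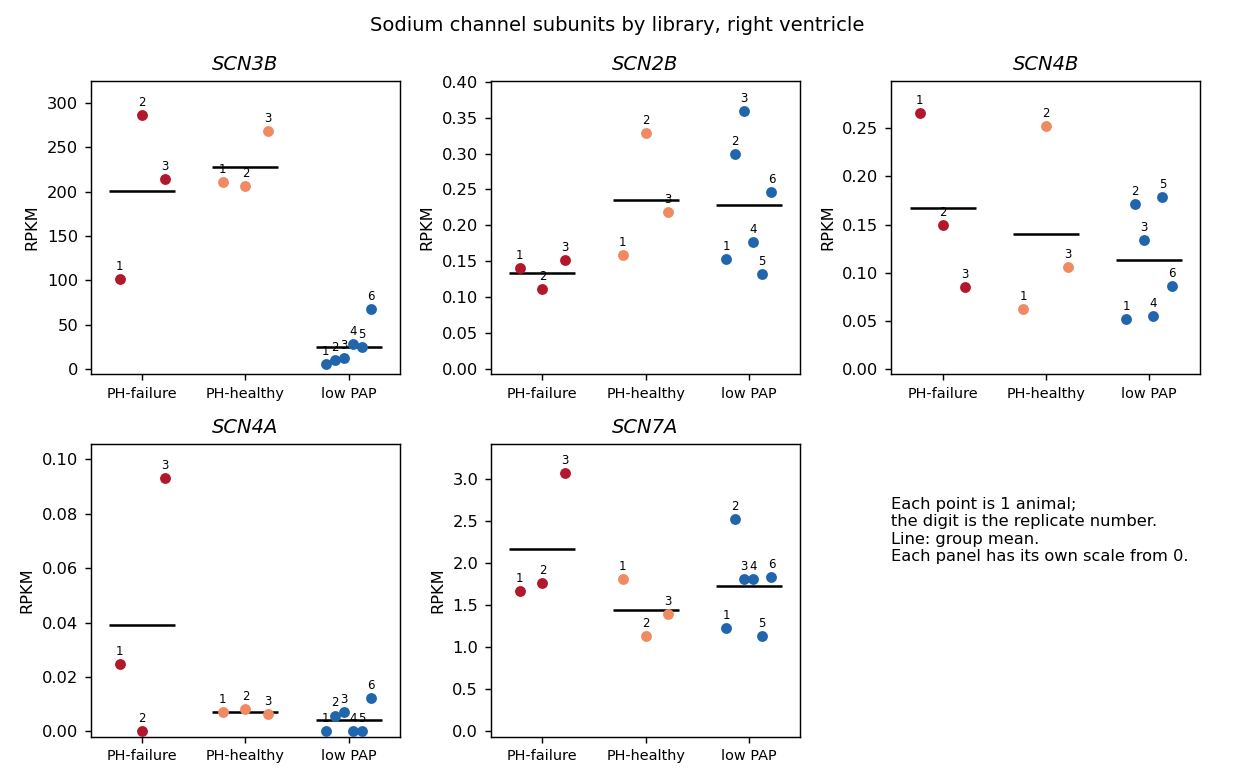
RPKM of SCN3B, SCN2B, SCN4B, SCN4A and SCN7A in each of the 12 libraries, 1 panel per gene with its own axis from 0, points labelled by replicate number and lines at the group mean. The SCN3B values of the PH groups, 102 to 287 RPKM, lie above all low-PAP values, while the groups overlap with low PAP in the other 4 genes.

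Set against low PAP, SCN3B was higher in failing ventricles. It averaged 201 ± 93.4 RPKM in PH-failure and 24.7 ± 22.8 RPKM in low PAP (SD, n = 3 and n = 6). The log2 fold change was 3.27 ± 0.59 (limma adjusted p = 0.00347), rank 5 among the increases of 11374 tested genes. In this comparison 33.8% of tested genes were called, 28% of tested genes were called higher and 18.6% had all PH-failure values above all low-PAP values. The ratio of the group means was 8.14. Of the 21 alternative settings tried, including the omission of each library, all kept the SCN3B call (adjusted p = 0.000468 to 0.0218).

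In hypertensive ventricles without failure SCN3B was higher as well. It averaged 228 ± 34.5 RPKM in PH-healthy and 24.7 ± 22.8 RPKM in low PAP (SD, n = 3 and n = 6). Its log2 fold change was 3.57 ± 0.59 (limma adjusted p = 0.00182), rank 3 among the increases, and the ratio of the means was 9.25. Here 34.7% of tested genes were called, 26.6% of tested genes were called higher and 25% had no overlap in that direction. Both comparisons use the same low-PAP animals, so their agreement is not separate evidence. The authors' deposited table gives a fold of 6.95 for high over low PAP with a false discovery rate of 2.88e-07. The means behind it, 190 and 27.4 RPKM at high and low PAP in the authors' deposited table, are not the means of the 6 libraries per pressure class used here.

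Between PH-failure and PH-healthy, SCN3B did not pass the test, at -0.30 ± 0.68 on the log2 scale (limma adjusted p = 1; 95% interval of the log2 difference -1.77 to 1.18), which leaves room for a difference of either sign. In this comparison 0.00879% of tested genes were called, 1 gene in all, and 308 had an unadjusted p under 0.05. Limma-voom on the recovered reads called 0. The called gene, a row with the symbol BPHL that was lower in PH-failure, was named after its value was seen. The SD of SCN3B was 46.5% of the mean in PH-failure, 15.1% in PH-healthy and 92.3% in low PAP, and the highest low-PAP library had 11.7 times the level of the lowest.

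Low-PAP replicate 6 stood apart from the other 5 low-PAP libraries in SCN3B. Without it the low-PAP mean was 16.1 ± 9.73 RPKM (SD, n = 5) and the log2 fold change was 3.64 in PH-failure and 3.94 in PH-healthy, in place of 3.27 and 3.57. The library names fall into 2 series, numbered 55 and 56, with animals of each class in both. Within series 55 SCN3B exceeded low PAP by 2.93 in PH-failure and by 3.06 in PH-healthy on the log2 scale, and within series 56 by 3.73 and 4.03. The PH means lay far above the low-PAP mean in either series, at 214 RPKM in 1 PH-failure library, 237 RPKM in 2 PH-healthy libraries and 34.7 RPKM in 3 low-PAP libraries of series 55.

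SCN2B encodes the beta-2 subunit and SCN4B the beta-4 subunit, which are joined to the alpha subunit by a disulfide bond. In mouse and human, SCN4B is also known as a subunit of heart and of fast-firing neurons, where its cell-side tail can block the open pore. The genes are neighbours on chromosome 15, 14.0 kb apart (SCN4B at 29257447 to 29277309 and SCN2B at 29291351 to 29303246 in the table's coordinates), with SCN3B 5466 kb farther on. SCN2B was near the limit of what the libraries could show, and SCN4B was low, at 6 to 24 reads a library.

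SCN2B had 0.140, 0.111 and 0.151 RPKM in PH-failure replicates 1, 2 and 3, from 2, 3 and 4 reads. In PH-healthy it had 0.159, 0.329 and 0.218 RPKM, from 4, 7 and 6 reads, and in low PAP 0.133 to 0.359 RPKM, with a median of 0.211 RPKM, from 4 to 9 reads. A library with 3 reads on this gene stands at 0.0995 to 0.210 RPKM. The PH-failure values overlapped with low PAP and lay just below all 3 PH-healthy values, a gap of a few reads; 2.13% of tested genes lay without overlap in that direction. In a fit of all 17284 genes above 0 with no filter, SCN2B differed from low PAP by -0.11 ± 0.06 in PH-failure and by 0.00974 ± 0.0612 in PH-healthy on the log2 scale (limma adjusted p = 0.208 and 0.936). PH-failure and PH-healthy differed by -0.12 ± 0.07 (adjusted p = 1). At levels this far below 1 RPKM the 1 added before the log shrinks such differences, so they are not fold changes of the level. The ratio of the SCN2B means to low PAP was 0.588 in PH-failure and 1.03 in PH-healthy.

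SCN4B had 0.266, 0.149 and 0.0847 RPKM in PH-failure replicates 1, 2 and 3, from 17, 18 and 10 reads over 4331 bases of exon. In PH-healthy it had 0.0623, 0.253 and 0.106 RPKM, and in low PAP 0.0516 to 0.178 RPKM with a median of 0.110 RPKM. A library with 3 reads on SCN4B stands at 0.0223 to 0.0470 RPKM, below the value of every library. The 3 groups overlapped. The log2 differences from low PAP in the unfiltered fit were 0.07 ± 0.06 for PH-failure and 0.03 ± 0.06 for PH-healthy (limma adjusted p = 0.475 and 0.752). They are shrunk by the added 1 as well, and the ratios of the means were 1.48 and 1.24.

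SCN4A encodes the pore subunit that drives action potentials in skeletal muscle, and it lies on chromosome 19 (48794398 to 48825660). It was listed at 0 in 1 of 3 PH-failure libraries and in 3 of 6 low-PAP libraries. PH-failure replicate 3 had 14 reads, 0.0933 RPKM, and PH-failure replicates 1 and 2 had 2 and 0 reads. Each PH-healthy library had 1 read, and the low-PAP libraries had 0 to 2 reads, 4 in total. A library with 3 reads on its 5505 bases of exon stands at 0.0175 to 0.0370 RPKM, and PH-failure replicate 3 was the only library with more than 3 reads. The PH-failure mean of 0.0393 RPKM was 0.0123 RPKM without that library. The unfiltered fit gave log2 differences from low PAP of 0.05 ± 0.02 for PH-failure and 0.00435 ± 0.0226 for PH-healthy (limma adjusted p = 0.141 and 0.919). The added 1 shrinks these differences at such levels, so they are not fold changes. The ratio of the means to low PAP was 9.33 in PH-failure, resting largely on replicate 3, and 1.72 in PH-healthy. The authors' deposited table gives SCN4A a fold of 6.42 with p = 1.

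Of the 17 skeletal muscle fibre markers, 16 were in the table and 11 of these never reached 1 RPKM. MYOD1 and MYOG, which define the lineage, were listed at 0 in all 12 libraries. The summed level of the list was 847, 713 and 96.0 RPKM in PH-failure replicates 1, 2 and 3, 402 to 586 RPKM in PH-healthy and 85.5 to 261 RPKM in low PAP. TNNT1, the slow skeletal troponin T, supplied most of it. Against low PAP, 1 of the 4 tested markers was called higher in PH-failure and 2 in PH-healthy, and none lower. Beside them, 28% and 26.6% of all tested genes were called higher. In PH-failure replicate 3, the library with the most SCN4A reads, TNNT1 was 91.5 of the 96.0 RPKM, while CACNA1S and CHRNA1 of the same list had their highest values of the 12 libraries there, at 0.124 and 0.0510 RPKM. CACNA1S and CHRNA1 were picked from the list after their values were seen, and both lay far below 1 RPKM. The part of such fibres in the SCN4A reads was not tested.

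SCN7A encodes Nax, an atypical relative of the alpha subunits that is known in mouse as a sensor of extracellular sodium in glial cells rather than as a voltage-gated channel. It lies on chromosome 2 (ENSBTAG00000019137, 29933316 to 29994583), 99.1 kb from SCN9A and in a row with SCN1A, SCN2A and SCN3A. None of these 4 neighbours in the family passed the filter. SCN7A had 1.67, 1.76 and 3.07 RPKM in PH-failure replicates 1, 2 and 3, from 126, 251 and 429 reads. It had 1.81, 1.13 and 1.39 RPKM in PH-healthy replicates 1, 2 and 3, and 1.14 to 2.53 RPKM, with a median of 1.81 RPKM, in low PAP. The groups overlapped, and PH-failure replicate 3 was the highest of the 12 libraries.

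SCN7A did not pass in any comparison. Against low PAP the log2 fold change was 0.21 ± 0.18 in PH-failure (limma adjusted p = 0.377; 95% interval -0.18 to 0.60) and -0.15 ± 0.18 in PH-healthy (adjusted p = 0.546; 95% interval -0.53 to 0.24). Between PH-failure and PH-healthy it was 0.35 ± 0.21 (adjusted p = 1; 95% interval -0.09 to 0.80). The first of these was as large as the median of all tested genes, 0.21, and became -0.10 after quantile normalization. Without PH-failure replicate 3 the PH-failure mean was 1.71 ± 0.0642 RPKM (SD, n = 2), against 2.17 ± 0.784 RPKM with it, and the log2 fold change was 0.01.

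Markers of cells other than heart muscle varied between the libraries in which SCN7A varied. Of the 12 fibroblast markers, 7 rose in PH-failure and 5 in PH-healthy against low PAP, and none fell, where 28% and 26.6% of all tested genes were called higher. Their summed level was 1962, 1251 and 1605 RPKM in PH-failure replicates 1, 2 and 3, 916 to 1583 RPKM in PH-healthy and 935 to 1211 RPKM in low PAP. PDGFRA, a receptor that defines fibroblasts, had 17.2 RPKM in PH-failure replicate 3, against 5.23 to 8.31 RPKM in the other 11 libraries. POSTN (455 RPKM), TCF21 (17.7 RPKM) and MFAP5 (108 RPKM) also had their highest value of the 12 libraries there. LUM (139 RPKM), COL1A1 (93.5 RPKM) and COL3A1 (149 RPKM) were instead lowest of the 3 PH-failure libraries in that replicate. The remaining markers of the list lay between PH-failure replicates 1 and 2 there. The 4 adipocyte markers in the table summed to 184, 42.5 and 1047 RPKM in PH-failure replicates 1, 2 and 3, 18.4 to 35.1 RPKM in PH-healthy and 29.0 to 251 RPKM in low PAP. Of the 12 Schwann cell and glia markers in the table, 6 never reached 1 RPKM, and SOX10, which defines the lineage, had 0.30 to 0.79 RPKM. Their sum, mostly S100B, was 152 to 305 RPKM in PH-failure, 179 to 226 RPKM in PH-healthy and 228 to 307 RPKM in low PAP. The part of these cells in the SCN7A level was not tested.

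The same was recorded for SCN3B. Of the 9 conduction system markers, 2 were tested, the connexin GJA5 and the transcription factor IRX3. Both rose in each PH group, where 28% of all tested genes were called higher in PH-failure and 26.6% in PH-healthy. The list summed to 15.6 to 22.8 RPKM in PH-failure, 16.6 to 21.1 RPKM in PH-healthy and 4.96 to 13.0 RPKM in low PAP, and HCN4, the pacemaker channel of that tissue, was at or below 0.0611 RPKM in every library. The summed level of the 7 atrial markers in the table was lower in the PH groups, at 432 to 1847 RPKM in PH-failure, 545 to 881 RPKM in PH-healthy and 3093 to 6792 RPKM in low PAP. Of the 5 tested, MYL7 and MYBPHL fell in both PH groups, NR2F2 rose in PH-failure, and the others did not pass. Of all tested genes, 5.79% were called lower in PH-failure and 8.15% in PH-healthy. Of the 10 neuron markers, 9 never reached 1 RPKM and 4 were listed at 0 in all libraries, while UCHL1 rose in both PH groups. Of the 8 endothelial markers, 4 rose in PH-failure and 3 in PH-healthy, beside 28% and 26.6% of all tested genes. The part of these cells in the SCN3B level was not tested.

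Genes beside SCN3B on chromosome 15 did not share its shift in size. Within 500 kb the table held 9 other genes, of which 5 were tested and none overlapped SCN3B. The nearest, GRAMD1B at 10.3 kb, had a log2 fold change of 0.32 in PH-failure and 0.37 in PH-healthy against low PAP and did not pass (limma adjusted p = 0.208 and 0.147). Of the 5, ASAM and SAAL1 were called higher in PH-failure (0.74 and 0.35) and ASAM in PH-healthy (0.62). Among all tested genes 28% and 26.6% were called higher, and 5 neighbours are too few to set against those shares. The largest change among these neighbours was thus 0.74, against 3.27 for SCN3B.

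Partners and regulators of sodium channels were followed as a list of 28 genes, of which 24 were in the table and 21 were tested. Whether each listed protein, MYOT and PTPRH among them, binds or modifies the cardiac channel was not tested. In PH-failure against low PAP, 5 of the 21 rose (23.8%) and 1 fell (4.76%), beside 28% and 5.79% of all tested genes. Their median log2 fold change was 0.19, beside 0.21 for all genes. In PH-healthy, 7 rose (33.3%) and 1 fell (4.76%), beside 26.6% and 8.15% of all genes, with a median of 0.17 beside 0.18. After quantile normalization 4 of the 21 rose and 0 fell in PH-failure, beside 1133 higher and 1418 lower of 11374 tested genes. In PH-healthy 5 rose and 1 fell after it, beside 1424 higher and 1622 lower of all tested genes. No gene of the list was called between PH-failure and PH-healthy. Before quantile normalization the shares were near the background, so the list as a whole did not stand out in that fit. After it, the share that rose lay above that of all tested genes and the share that fell lay below it. That difference rests on few genes and was not tested.

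Of the enzymes on the list some rose and some did not. FYN, a tyrosine kinase, averaged 26.5 ± 1.72 RPKM in PH-failure and 14.4 ± 2.84 RPKM in low PAP (log2 fold change 0.85 ± 0.15, limma adjusted p = 0.00295). FYN in PH-healthy averaged 26.4 ± 3.96 RPKM (0.84 ± 0.15, adjusted p = 0.00247). PRKCA, protein kinase C alpha, averaged 3.02 ± 0.910 RPKM in PH-failure, 2.90 ± 0.503 RPKM in PH-healthy and 1.22 ± 0.477 RPKM in low PAP, and rose in both comparisons (adjusted p = 0.00793 and 0.00745). For FYN and PRKCA neither PH group overlapped with low PAP. Of the 21 tested partners, 2 were called without overlap in PH-failure, FYN and PRKCA, both higher. In PH-healthy 5 were, of which FYN, PRKCA, PTPN3 and MYOT were higher and TCAP was lower. Of all tested genes, 18.6% in PH-failure and 25% in PH-healthy lay above low PAP without overlap, called or not. Those shares do not cover genes that were lower, such as TCAP. PTPN3, a tyrosine phosphatase that binds the tail of the channel, rose by 0.66 in PH-failure and 0.81 in PH-healthy on the log2 scale (adjusted p = 0.0364 and 0.0157). PRKACA, the catalytic subunit of protein kinase A, rose in PH-healthy (0.83, adjusted p = 0.0213) and had 0.65 in PH-failure without passing (adjusted p = 0.0544). CAMK2D, a calcium-dependent kinase, did not pass (-0.07 in PH-failure and 0.11 in PH-healthy), and the phosphatase gene PTPRH was below the filter.

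Structural genes of the list moved in both directions. CXADR, a junction protein of the intercalated disc, averaged 29.1 ± 9.89 RPKM in PH-failure, 26.4 ± 4.80 RPKM in PH-healthy and 14.4 ± 6.56 RPKM in low PAP and rose in both comparisons (limma adjusted p = 0.0243 and 0.0337). MYOT, a Z-disc protein, rose by 0.77 and 0.94 on the log2 scale in PH-failure and PH-healthy. TCAP, a Z-disc protein that also binds the channel, averaged 4259 ± 501 RPKM in PH-failure, 3877 ± 236 RPKM in PH-healthy and 5444 ± 611 RPKM in low PAP and fell in both comparisons (adjusted p = 0.0486 and 0.0139). ANK2, ankyrin-B, was the seventh gene that rose in PH-healthy (0.68, adjusted p = 0.0421). Other genes of the list that did not pass include ANK3 (ankyrin-G; 0.20 in PH-failure and 0.07 in PH-healthy), GPD1L (0.21 and 0.43) and FGF13 (-0.05 and -0.22).

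**Figure D3:**
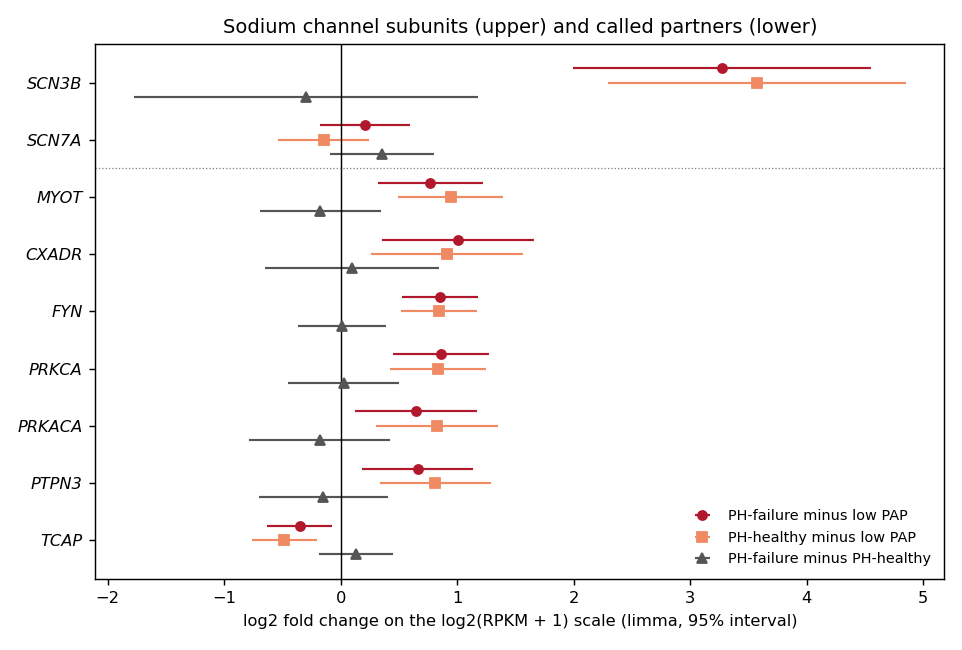
Log2 fold change with its 95% interval (limma, not adjusted for the number of genes) in the 3 comparisons. The 2 of the 12 subunit genes that passed the filter are above the dotted line. The called partners other than ANK2 are below it. SCN3B lies at 3.27 and 3.57 against low PAP, while the partners lie between -0.48 and 1.01 in those comparisons.

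The genes whose pattern over the 12 libraries was most like that of SCN3B were found by the root-mean-square difference between z-scores of log2(RPKM + 1), among 10713 tested genes with a symbol. They were RNPEPL1, a relative of the aminopeptidases (0.203), CRYM, a thyroid hormone-binding protein (0.204), NRAP, an anchoring protein of muscle myofibrils (0.2398), and FAM20C, a kinase of the secretory pathway (0.241). NRAP averaged 319 ± 61.3 RPKM in PH-failure, 379 ± 49.0 RPKM in PH-healthy and 88.7 ± 25.98 RPKM in low PAP. CRYM averaged 78.9 ± 11.7 RPKM in PH-failure, 83.2 ± 16.3 RPKM in PH-healthy and 37.7 ± 10.3 RPKM in low PAP. Their log2 fold changes against low PAP, 0.84 to 2.12, were smaller than those of SCN3B, so the likeness is in the scaled pattern and not in size. The likeness rests largely on the split between PH and low PAP, which many other genes share.

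**Figure D4:**
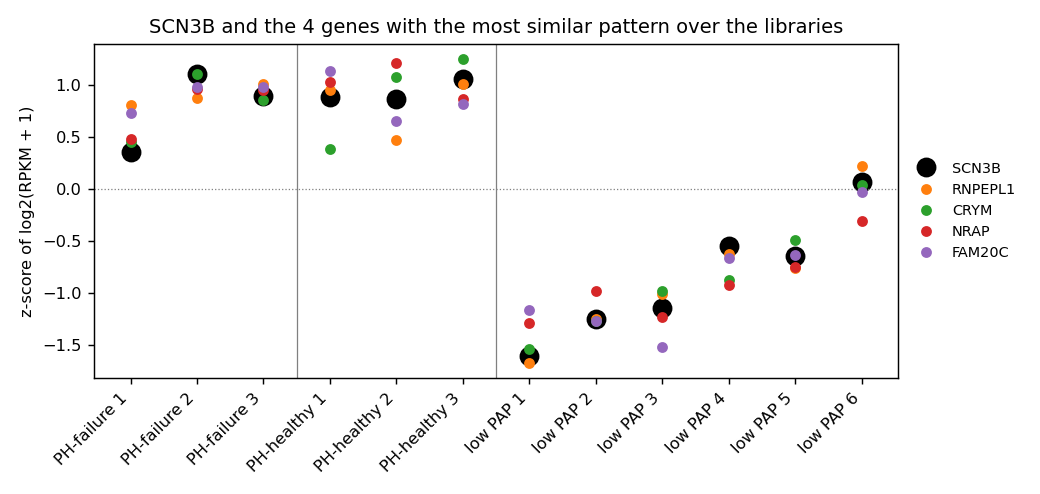
Z-scores of log2(RPKM + 1) for SCN3B, large black points, and the 4 genes of most similar pattern, coloured points, in the 12 libraries. All 5 genes are high in the PH libraries, and in low PAP each has its highest value in replicate 6.

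For SCN7A the nearest patterns were less close, at differences of 0.355 for SAV1, an adaptor of Hippo signalling, 0.383 for ESF1, a nucleolar protein, 0.447 for PYGL, a glycogen phosphorylase, and 0.492 for KCNMB4, a subunit of a calcium-activated potassium channel. None of these 4 genes passed in any comparison. PYGL averaged 21.9 ± 9.87 RPKM in PH-failure, 14.7 ± 2.87 RPKM in PH-healthy and 18.6 ± 4.62 RPKM in low PAP. The likeness rests largely on PH-failure replicate 3, where SCN7A had a z-score of 2.09 and the 4 genes had 2.08 to 2.17.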

How the data were processed

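RNA was isolated with Trizol and sequenced as Illumina libraries, per the labels' protocols. The authors deposited 1 table with RPKM for 24616 genes and 12 libraries, per the file headers. It also holds the authors' mean RPKM, a signed fold change (used as a score) and a p-value plus a false discovery rate; the authors deposited these for high against low PAP, and they are quoted only as their values. Aligner, counting, strand and build: not given in the sources used here. Positions are the table's own.

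Read numbers, exon lengths and mapped reads were recovered from the steps of the RPKM values, and 100% of 11374 tested genes came out whole in every library within 0.05 reads. Limits of 3 reads cover counting error only. Log2(RPKM + 1) was modelled with limma 3.58.1 (R 4.3.3, statmod 1.5.0), using a variance trend and robust moderation, in 1 model of 3 groups, after a filter of 1 RPKM in 3 libraries. The design assumed counts or RPKM and used the RPKM form. Recovery and test were checked on simulated data. Each library is a different animal. Python 3.11.15 with pandas 2.3.3 and matplotlib 3.10.9 was used for tables and plots.

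The genes, lists and tests were chosen with earlier results of these data known. Named genes are the 5 genes, the other subunit genes, in each comparison up to 6 called partners in each direction by smallest p, and the 4 genes nearest in pattern to each tested gene. ANK2, BPHL, chromosomal neighbours, marker genes and partners that did not pass were named after their values were seen. FGF12 and FGF14 are partners without a symbol in the table used here. Some genes of the family and of the partner list are not reported here. Alternatives were another pseudocount (0.1), filter and scaling, limma-voom on recovered reads, the library series or replicate number as a term, and the omission of each library.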

Additional observations from a re-analysis of the deposited data

Results flagged for a closer look

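SCN3B in low-PAP replicate 6 had 67.6 RPKM, against 5.76 to 28.2 RPKM in the other 5 low-PAP libraries. The gap to the next library was 0.638 of the range of the group, above Dixon's 95% critical value for 6 libraries. This holds for RPKM only: on the log2(RPKM + 1) scale of the tests the gap was 0.369 of the range, below that value. The value rests on 1849 reads. Of 12 measures checked in the low-PAP group, 1 was flagged in this way, where chance flags about 1 group in 20.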

How the results depend on the processing

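The SCN3B calls against low PAP kept their direction and passed in all 21 alternatives, with log2 fold changes of 2.96 to 4.23 in PH-failure and 3.27 to 4.53 in PH-healthy. With each library left out they were 2.96 to 3.70 and 3.27 to 3.94, and between PH-failure and PH-healthy -0.62 to 0.13, the last without PH-failure replicate 1. SCN7A passed in none, and its PH-failure value turned to -0.10 after quantile normalization. FYN and PRKCA kept their calls in all 21 alternatives; CXADR lost its call in 3 for PH-failure and 9 for PH-healthy, MYOT in 4 and 0, PTPN3 in 10 and 3, TCAP in 13 and 3, and PRKACA in 4 for PH-healthy. The count of called genes was 3848 for PH-failure against low PAP, 2551 after quantile normalization (1133 higher and 1418 lower, against 3190 and 658), 3220 after median-ratio scaling (1435 higher and 1785 lower), and 1528 to 4665 with each library left out (1528 without PH-failure replicate 3, 2352 without replicate 2). For PH-healthy it was 3951 (3024 higher and 927 lower), 3046 after quantile normalization (1424 and 1622), 3689 after median-ratio scaling (1721 and 1968), and 1884 to 4640 with each library left out (1884, 2376 and 2246 without PH-healthy replicates 1, 2 and 3). For PH-failure against PH-healthy it was 1, 0 with limma-voom, 0 with library series as a term, and 0 to 4 with each library left out. Same-numbered libraries of different groups come from different animals. Their deviations from the group means correlated at -0.257 to 0.193, over 0.1 in 2 of 9 pairs, so the numbers do not pair them. With the replicate number as a block the counts were 1379, 1834 and 0, and SCN3B had 4.23 and 4.53. The cause of these shifts was not tested. Depth limits SCN2B, SCN4B and SCN4A, which rest on 0 to 24 reads a library.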
